A study of Mus musculus with 18 samples.

Results

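The 10 genes described here encode heat shock chaperones and were taken by symbol: Hspa8, Hspa1a and Hspa1b of the HSP70 family, Hsph1 of the HSP110 family, the J-domain protein gene Dnajb1, the HSP90 genes Hsp90aa1 and Hsp90ab1, the mitochondrial pair Hspd1 and Hspe1, and the small heat shock protein gene Hspb1. All 10 were found among the 53342 gene identifiers of each count table, and all 10 passed the filter on low counts that left 15762 genes for testing. RNA was sequenced from Thy1+ cells sorted from mouse hearts, a population the labels write as Thy1+ HE or Thy1+HE- without spelling out HE. Cardiac fibroblasts carry the surface protein Thy1, by which they are sorted. Hearts came from KK/HlJ, C3H/HeJ and C57BL/6 mice, 3 inbred strains. Mice of each strain carried pumps that released isoproterenol (ISO, a drug that activates beta-adrenergic receptors), with cells taken at day 14 or day 21, or saline (sham), whose labels carry no day. There were 2 libraries in each of the 9 groups. Nothing in the labels tells separate animals from pools or from repeat libraries, and the p-values therefore measure a spread between libraries that may be technical.

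Chaperones of the HSP70 family bind short hydrophobic stretches of unfolded proteins in a cycle driven by ATP. J-domain proteins such as Dnajb1 bring substrates and trigger ATP hydrolysis, and HSP110 proteins such as Hsph1 exchange the nucleotide that follows. HSP90 acts later, on proteins that are nearly folded, while Hspd1 and Hspe1 form the folding chamber of the mitochondrial matrix and its lid. Small heat shock proteins such as Hspb1 hold unfolded proteins without ATP. The transcription factor HSF1 switches on the inducible members after heat, oxidative or proteotoxic stress, and it binds repeats of the bases GAA in alternating orientation, called heat shock elements. In the heart these genes are known for their response to ischaemia, and in many tissues for their response to the warm enzymatic digestion by which cells are released.

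Total counts ran between 7230741 and 26280685 per library. The sum over 12 fibroblast markers lay between 91260 and 133900 CPM (read counts scaled to a common library size, for these sums by total counts) in every library, against at most 2065 CPM for 12 endothelial markers, 229 CPM for 12 macrophage and monocyte markers, with Itgam at 0 in all libraries, and 6576 CPM for 12 pericyte and smooth muscle markers. Replicate 1 of KK/HlJ ISO day 14 was the shallowest library and had the lowest median correlation with the others, 0.811 in log2 CPM over genes, where the other 17 lay between 0.840 and 0.912. That library, replicate 1 of the other KK/HlJ groups and replicate 1 of C3H/HeJ sham stand apart from the rest, and results that change without them are given both ways. In bulk RNA a lower level per cell and fewer cells that carry the transcript cannot be told apart.

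Per length of the longest protein-coding transcript, Hsp90ab1, the constitutive cytosolic HSP90, was the most abundant chaperone, with a median level of 446 RPKM (reads per kilobase of transcript and CPM unit) and a lowest library of 271 RPKM. That lowest library lay above the highest library of each of the 9 other genes, 207 RPKM for Hspa8. Dnajb1 followed with a median of 146 RPKM and Hspa8, the constitutive cytosolic HSP70, with 120 RPKM, and the libraries of these neighbours overlapped. Hspb1, Hspe1 and Hsph1 had median levels of 36.9, 25.8 and 21.9 RPKM. The stress-inducible Hspa1a and Hspa1b, the inducible HSP90 gene Hsp90aa1 and Hspd1 stood at medians of 7.56 to 9.24 RPKM, with ranges that overlapped throughout. The spread over libraries differed more than the order of the medians. The highest library exceeded the lowest 1.82-fold for Dnajb1, 2.39-fold for Hsp90ab1 and 3.44-fold for Hspa1a, against 45.7-fold for Hspd1, 25.3-fold for Hsp90aa1, 17.5-fold for Hsph1, 15.1-fold for Hspa1b and 11.7-fold for Hspa8.

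**Figure D1:**
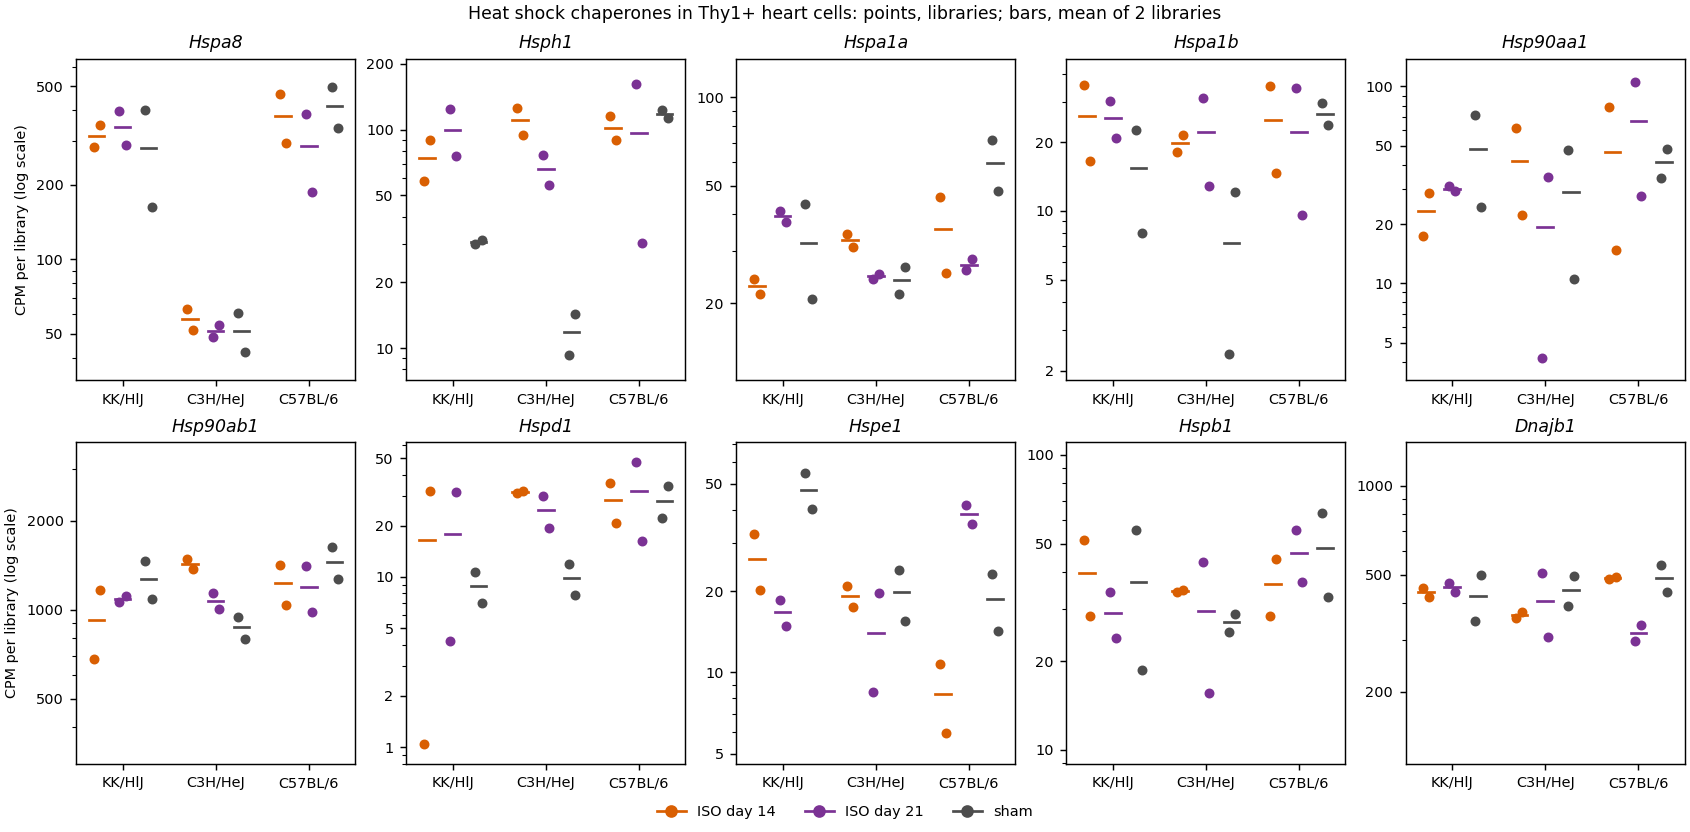
Level of each chaperone in CPM on a log axis (y) by strain and condition (x), with 1 point per library and a bar at the mean of 2 libraries. Hspa8 is lowest in all 6 C3H/HeJ libraries, Hsph1 is at 9.27 to 31.2 CPM in the sham libraries of KK/HlJ and C3H/HeJ, and Dnajb1 and Hsp90ab1 vary least.

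Whether the strains differ in their chaperones at baseline was asked with the sham libraries, by edgeR's quasi-likelihood test with p-values adjusted (Benjamini-Hochberg) over all genes tested. In C3H/HeJ against C57BL/6, 2 of 10 members fell, Hspa8 and Hsph1, where 0.102% of all genes were called and 0.0444% fell. In KK/HlJ against C3H/HeJ 1 of 10 was called, Hspa8, higher in KK/HlJ, where 0.152% of all genes were called and 0.108% were higher. In KK/HlJ against C57BL/6 none of 10 was called, where 0.0508% of all genes were called, with 2 members at an unadjusted p under 0.05 and 0 called by DESeq2 or by limma voom. Every one of the 7 members whose sham libraries did not overlap was lower in C3H/HeJ than in C57BL/6, namely Hspa8, Hsph1, Hspa1a, Hspa1b, Hsp90ab1, Hspd1 and Hspb1, where 39.3% of all genes did not overlap in either direction. Hspe1 was higher and Hsph1, Hspa1a, Hspa1b and Hspd1 were lower in KK/HlJ than in C57BL/6 without overlap, 5 of 10 where 33.4% of all genes did not overlap. Hspa8, Hsph1, Hsp90ab1 and Hspe1 were higher in KK/HlJ than in C3H/HeJ without overlap, 4 of 10 where 25.6% of all genes did not overlap. The median log2 fold change over the 10 members was -1.07 in C3H/HeJ against C57BL/6, beside -0.09 over all genes. The corresponding medians were -0.48 and -0.08 in KK/HlJ against C57BL/6, and 0.64 and 0.00 in KK/HlJ against C3H/HeJ. These comparisons share their sham libraries. The summed pericyte and smooth muscle markers were 2107 to 2970 CPM in C3H/HeJ sham against 3903 to 6576 CPM in C57BL/6 sham, and the summed immediate-early genes 15240 to 25210 CPM against 25510 to 28790 CPM. Cardiomyocyte markers summed to 167.8 to 173.5 CPM in C3H/HeJ sham against 314.5 to 377.1 CPM in C57BL/6 sham, and endothelial markers to 753.4 to 939.4 CPM against 967.9 to 1095 CPM. Other sums were higher in C3H/HeJ sham than in C57BL/6 sham. Schwann and glia markers were 195.1 to 224.6 CPM against 149.9 to 163.8 CPM, and the 2 cold-induced RNA-binding protein genes 65.9 to 84.93 CPM against 42.75 to 43.85 CPM. Their part in the baseline difference was not tested.

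Hspa8 (chr9:40800984-40810087, plus strand, mm10) encodes HSC70, the HSP70 made in all cells without stress. Its level in KK/HlJ was 285 and 348 CPM at ISO day 14, 397 and 290 CPM at day 21, and 400 and 163 CPM in sham. In C3H/HeJ it was 62.8 and 51.8 CPM at ISO day 14, 48.5 and 54.4 CPM at day 21, and 60.8 and 42.3 CPM in sham. In C57BL/6 it was 466 and 295 CPM at ISO day 14, 388 and 187 CPM at day 21, and 496 and 341 CPM in sham. All 6 C3H/HeJ libraries therefore lay below all 12 libraries of the other strains, where 2.06% of all genes did not overlap between the 6 C3H/HeJ and 6 C57BL/6 libraries and 0.926% between KK/HlJ and C3H/HeJ. Between the 6 KK/HlJ and 6 C57BL/6 libraries 0.749% of all genes did not overlap, and all 10 members overlapped. Within each strain the ISO and sham libraries of Hspa8 overlapped. The sham level averaged 51.5 ± 13.1 CPM in C3H/HeJ and 418 ± 110 CPM in C57BL/6 (SD, n = 2 each). In sham, C3H/HeJ was 8.11-fold lower than C57BL/6 (log2 fold change -3.02, SE 0.446, adjusted p = 0.0016) and KK/HlJ was 5.46-fold higher than C3H/HeJ (2.45, SE 0.436, adjusted p = 0.0155). The first of these calls was lost when only the compared groups were fitted (-3.03, adjusted p = 0.244). The second was lost in the same fit (2.42, adjusted p = 1), with limma voom (2.36, adjusted p = 0.244), without either C3H/HeJ sham library (adjusted p = 0.14 and 0.0714), without replicate 1 of KK/HlJ sham (1.66, adjusted p = 0.195), and without the 4 libraries that stand apart (1.96, adjusted p = 0.0851). Averaged over sham and both ISO days, Hspa8 was 6.7-fold lower in C3H/HeJ than in C57BL/6 (-2.74, SE 0.255, adjusted p = 4.46e-07, where 0.647% of all genes were called and 0.241% fell) and 5.86-fold higher in KK/HlJ than in C3H/HeJ (2.55, SE 0.253, adjusted p = 1.88e-06, where 0.406% were called and 0.209% were higher).

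The low Hspa8 counts of C3H/HeJ came with counts listed under Gm15459, a processed pseudogene of Hspa8 (chr5:5781615-5783555, minus strand, mm10). Over 1941 aligned bases it differs from the Hspa8 transcript at 5, and 70% of the 2345 stretches of 50 bases in Hspa8, the read length, occur in it without a difference. The first bases of the coding region, printed 5′ to 3′ with the only differing base in capitals, show how little separates the 2 genes, from bases 371 to 490 of the Hspa8 transcript and bases 1 to 120 of Gm15459.
Hspa8: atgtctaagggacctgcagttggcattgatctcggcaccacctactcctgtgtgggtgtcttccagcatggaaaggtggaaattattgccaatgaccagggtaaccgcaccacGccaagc
Gm15459: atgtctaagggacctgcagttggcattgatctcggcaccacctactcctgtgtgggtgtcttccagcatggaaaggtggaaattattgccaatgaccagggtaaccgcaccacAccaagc
Gm15459 held 824 to 3394 counts in the 6 C3H/HeJ libraries, 880 counts in replicate 2 of KK/HlJ sham, and at most 10 counts in each of the other 11 libraries. The KK/HlJ library with these counts is also the KK/HlJ library with the lowest Hspa8 level, 163 CPM.

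Counts of the 11 near copies of Hspa8 (at least 90% identical over at least 200 bases, 10 of them pseudogenes) were therefore added to Hspa8 and the test repeated, an alternative chosen after seeing the data. The near copies summed to 0.78 to 84.2 CPM in KK/HlJ, 76.2 to 188 CPM in C3H/HeJ and 0.623 to 3.26 CPM in C57BL/6. With the copies added, the level of Hspa8 was 247 to 401 CPM in KK/HlJ, 125 to 240 CPM in C3H/HeJ and 188 to 497 CPM in C57BL/6, so that C3H/HeJ still held the lowest libraries but overlapped C57BL/6. The fall in C3H/HeJ against C57BL/6 shrank to -1.01 over the 3 conditions (SE 0.22, adjusted p = 0.0284), and in sham to -1.34 (SE 0.383, adjusted p = 0.504), no longer called. KK/HlJ against C3H/HeJ gave 0.89 over the 3 conditions (SE 0.219, adjusted p = 0.102) and 0.96 in sham (SE 0.38, adjusted p = 0.702), neither of them called. The size of the Hspa8 difference between C3H/HeJ and the other strains is therefore uncertain. The values with and without the copies are not its limits, because the read counter and its handling of shared stretches are not given. How many reads of either gene were assigned to the other was not tested.

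**Figure D2:**
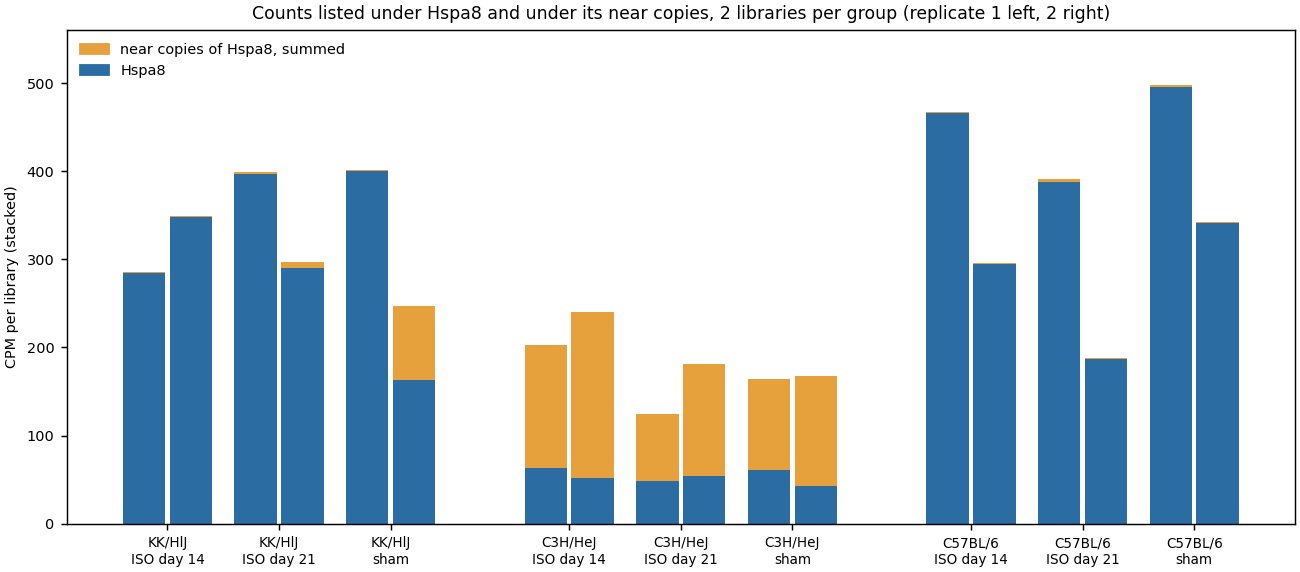
Level in CPM listed under Hspa8 (blue) and summed over its near copies (orange), stacked, for each of the 18 libraries (x, grouped by strain and condition). The near copies reach 76.2 to 188 CPM in the 6 C3H/HeJ libraries and 84.2 CPM in replicate 2 of KK/HlJ sham.

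Hspa1a and Hspa1b, the stress-inducible HSP70 genes, lie next to each other on chromosome 17, and 66.3% and 62.3% of their 50-base stretches occur in another gene, mainly in each other, so the split of counts between them is uncertain. Their levels stayed low, at 20.7 to 71.3 CPM for Hspa1a and 2.36 to 35.6 CPM for Hspa1b. Hspa1a was 24.2 and 21.5 CPM at ISO day 14, 41.2 and 37.7 CPM at day 21 and 43.4 and 20.7 CPM in sham of KK/HlJ. In C57BL/6 it was 45.9 and 25.4 CPM at ISO day 14, 25.9 and 28.2 CPM at day 21 and 71.3 and 48 CPM in sham, so both ISO days lay below sham there. The log2 fold change of Hspa1a in C57BL/6 was -0.74 at day 14 (SE 0.486, adjusted p = 1) and -1.14 at day 21 (SE 0.49, adjusted p = 1). Hspa1b was 18.1 and 21.6 CPM at ISO day 14, 31.3 and 12.9 CPM at day 21 and 2.36 and 12.1 CPM in sham of C3H/HeJ, with both ISO days above sham. Its log2 fold change there was 1.45 at day 14 (SE 0.807, adjusted p = 1) and 1.61 at day 21 (SE 0.811, adjusted p = 0.836). With the counts of the pair summed, the level ran from 23.8 to 101 CPM, and no ISO change passed the test. The log2 fold change of the sum was 0.75 at day 14 (SE 0.479, adjusted p = 1) and 0.58 at day 21 (SE 0.478, adjusted p = 0.854) in C3H/HeJ, and -0.51 (SE 0.476) and -0.81 (SE 0.479) in C57BL/6, with an adjusted p of 1 at both days. For the sum, sham C3H/HeJ against sham C57BL/6 gave a log2 fold change of -1.46 (SE 0.485, adjusted p = 0.784).

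Hsph1 (chr5:149614287-149636376, minus strand, mm10) encodes HSP105, the stress-inducible member of the HSP110 family, which reloads HSP70 with ATP. None of its 50-base stretches occurs in another gene, so its counts carry no such ambiguity. In KK/HlJ its level was 58.1 and 89.6 CPM at ISO day 14, 124 and 75.6 CPM at day 21, and 30.1 and 31.2 CPM in sham. In C3H/HeJ it was 126 and 94.6 CPM at ISO day 14, 76.7 and 55.9 CPM at day 21, and 9.27 and 14.4 CPM in sham. All ISO libraries of these 2 strains thus lay above all of their sham libraries. In C57BL/6 it was 115 and 89.7 CPM at ISO day 14, 162 and 30.2 CPM at day 21, and 123 and 113 CPM in sham, where the groups overlapped at day 21 and at day 14. Both sham C57BL/6 libraries lay within the range of the ISO libraries of the other strains, 55.9 to 126 CPM.

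The sham level of Hsph1 averaged 11.8 ± 3.62 CPM in C3H/HeJ and 118 ± 7.28 CPM in C57BL/6 (SD, n = 2 each). In sham, Hsph1 was 9.97-fold lower in C3H/HeJ than in C57BL/6 (log2 fold change -3.32, SE 0.568, adjusted p = 0.0108), a call lost without replicate 1 of C57BL/6 sham (-3.25, adjusted p = 0.0773), without replicate 1 of C3H/HeJ sham (-3.05, adjusted p = 0.415) and without the 4 libraries that stand apart (-3.05, adjusted p = 0.276). It was also lost with limma voom (-3.29, adjusted p = 0.31) and when only the compared groups were fitted (-3.33, adjusted p = 0.223). It was 3.86-fold lower in KK/HlJ than in C57BL/6 sham (-1.95, SE 0.537, adjusted p = 0.537). Over the 3 conditions C3H/HeJ against C57BL/6 gave -1.25 (SE 0.304, adjusted p = 0.0709) and KK/HlJ against C57BL/6 gave -0.79 (SE 0.301, adjusted p = 0.727, where 0.273% of all genes were called). Without replicate 2 of C57BL/6 ISO day 21, which at 30.2 CPM is the lowest C57BL/6 library, the first of these was -1.51 (adjusted p = 0.00274) and the second -1.05 (adjusted p = 0.114). Without replicate 1 of that group, at 162 CPM the highest library, they were -0.69 (adjusted p = 0.596) and -0.23 (adjusted p = 1).

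With ISO, Hsph1 had the largest change of the 10 members in C3H/HeJ, in KK/HlJ and in the means over strains, but not in C57BL/6, where Hspe1 and Hspa1a changed more, and it did not pass the test over all genes. Its log2 fold change in C3H/HeJ was 3.22 at day 14, a 9.33-fold higher level (SE 0.566, adjusted p = 0.0606), and 2.48 at day 21 (SE 0.55, adjusted p = 0.603). In KK/HlJ it was 1.27 at day 14 (SE 0.528, adjusted p = 0.885) and 1.7 at day 21 (SE 0.534, adjusted p = 0.721). In C57BL/6 it was -0.21 (SE 0.517) and -0.3 (SE 0.518), with an adjusted p of 1 at both days. The mean over the 3 strains was 1.43 at day 14 (SE 0.306, unadjusted p = 0.000127, adjusted p = 0.121) and 1.29 at day 21 (SE 0.305, unadjusted p = 0.000354, adjusted p = 0.254). DESeq2 called both means (adjusted p = 0.00688 and 0.0231) and both days in C3H/HeJ (adjusted p = 2.45e-05 and 0.00597), whereas limma voom called none of them. The range of genes that the alternative settings called over all genes is given below. In edgeR some fits with 1 library left out called Hsph1, each with 1 library remaining in a group. The day 14 mean was 1.43 or 1.42 without replicate 1 or replicate 2 of C57BL/6 ISO day 21, a group outside that comparison. The C3H/HeJ change at day 14 stayed at 3.22 without either of these libraries, which are outside its comparison too. Those calls came with the gap in that group, 162 against 30.2 CPM, removed from the shared spread, and are no support for a change. The day 14 mean was also called at 1.31 without replicate 2 of KK/HlJ ISO day 14. The C3H/HeJ change at day 14 was also called at 3.55 without replicate 2 of C3H/HeJ sham. The day 21 mean was called at 1.54 without replicate 2 of C57BL/6 ISO day 21. It was 0.74, not called, without replicate 1 of that group.

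The difference between strains in the ISO change of Hsph1 was tested as an interaction. The change in C3H/HeJ exceeded that in C57BL/6 by 3.43 on the log2 scale at day 14 (SE 0.754, unadjusted p = 0.000173, adjusted p = 1) and by 2.79 at day 21 (SE 0.748, adjusted p = 0.798). The change in KK/HlJ exceeded that in C57BL/6 by 1.47 at day 14 (SE 0.737, adjusted p = 1) and by 2 at day 21 (SE 0.74, adjusted p = 0.707). At day 14 and at day 21, 0% of all genes were called for these differences, and none of the 4 passed over all genes by edgeR, DESeq2 or limma voom. Without the filter on low counts edgeR called the difference between C3H/HeJ and C57BL/6 at day 14 (3.43, adjusted p = 0.00469) and at day 21 (2.8, adjusted p = 0.0324). For that difference the alternative settings called 0 to 2 genes over all genes at day 14 and 0 to 32 at day 21. Leaving out replicate 2 or replicate 1 of C57BL/6 ISO day 21 moved the day 21 difference to 2.02 or 4.45 for C3H/HeJ (adjusted p = 1 and 0.0519), and to 1.23 or 3.67 for KK/HlJ, neither of which passed. Each rests on 2 sham libraries per strain, the same ones at both days.

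A 30-base stretch near the start of Hsph1 holds the element in the form searched, in which capitals mark the match, from chr5:149636287-149636316 on the minus strand (RefSeq, GRCm38.p6), starting 36 bases after an annotated transcript start.
Hsph1: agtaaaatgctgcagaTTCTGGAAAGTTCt
The search took GAA, any 2 bases, TTC, any 2 bases and GAA, or its reverse complement, on both strands, with overlapping matches allowed, in windows of 250 bases before to 50 after each annotated start. The pattern occurs in 198 of 32851 windows, 0.603%, and in 4 of the 10 windows of the 7 members that have one, namely both of Hsph1, 1 of the 2 of Hspd1 and that of Hspe1. These 4 windows are not separate hits. Both Hsph1 windows overlap and hold the same match. The matches of Hspd1 and Hspe1 are the same bases read on opposite strands. The windows of Hspa1a and Hspa1b, which differ at 4 of 300 bases, and those of Dnajb1 and Hspb1 do not hold this pattern. Elements that depart from the pattern at any of its fixed bases were not searched, so a window without a match is not shown to lack a heat shock element.

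Dnajb1 (chr8:83608193-83612653) encodes HSP40, the J-domain partner of HSP70 that is itself heat-inducible. It was among the steadiest members, between 297 and 540 CPM in all 18 libraries. In C57BL/6 its level was 484 and 490 CPM at ISO day 14, 297 and 338 CPM at day 21 and 540 and 435 CPM in sham, so that day 21 lay below sham. The log2 fold change at day 21 was -0.62 (SE 0.313, adjusted p = 1). In KK/HlJ and C3H/HeJ its 4 ISO changes lay between -0.28 and 0.1 (adjusted p = 1 for each). The 95% intervals of the means over strains were -0.45 to 0.3 at day 14 and -0.59 to 0.16 at day 21.

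Hsp90ab1 (chr17:45567775-45573271) stood at 682 to 1630 CPM. In C3H/HeJ it was 1490 and 1370 CPM at ISO day 14, 1140 and 1010 CPM at day 21 and 943 and 799 CPM in sham, with both ISO days above sham. Its log2 fold change there was 0.72 at day 14 (SE 0.319, adjusted p = 1) and 0.3 at day 21 (SE 0.318, adjusted p = 0.932). In C57BL/6 it was 1420 and 1040 CPM at day 14, 1410 and 982 CPM at day 21 and 1630 and 1270 CPM in sham, and the groups overlapped. The sham level averaged 871 CPM in C3H/HeJ and 1450 CPM in C57BL/6 (log2 fold change -0.74, SE 0.319, adjusted p = 0.947). A pseudogene of Hsp90ab1 on chromosome X, Gm6368, held 79 to 400 counts in KK/HlJ and C3H/HeJ libraries and at most 3 in C57BL/6 libraries, which is small beside Hsp90ab1 itself, whose 50-base stretches are shared with other genes at 4.49%. Hsp90aa1, the inducible cytosolic HSP90, was 4.19 to 106 CPM, and replicates of 1 group differed widely, as at 4.19 and 34.7 CPM in C3H/HeJ ISO day 21 and 78.3 and 14.8 CPM in C57BL/6 ISO day 14. Its mean change over strains was -0.12 at day 14 (SE 0.612) and -0.18 at day 21 (SE 0.613), with an adjusted p of 1 for both.

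Hspd1 and Hspe1 encode the mitochondrial chaperonin HSP60 and its co-chaperonin HSP10, and are transcribed away from each other from 1 shared region on chromosome 1. The 250 bases before the start of Hspe1, chr1:55087898-55088147 on the plus strand (RefSeq, GRCm38.p6), hold a pair of overlapping matches to the element, shown in capitals, that begin 89 bases before the Hspe1 start and, on the other strand, 144 bases before a start of Hspd1.
Hspe1: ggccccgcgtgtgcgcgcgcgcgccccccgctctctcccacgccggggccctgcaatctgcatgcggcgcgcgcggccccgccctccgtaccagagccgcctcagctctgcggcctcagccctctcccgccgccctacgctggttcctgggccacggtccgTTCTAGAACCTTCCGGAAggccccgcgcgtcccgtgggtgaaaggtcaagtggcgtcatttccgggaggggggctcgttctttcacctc
From the outer annotated start of Hspd1, at chr1:55088243, the same matches lie downstream, within the gene. The transcripts overlap by 112 bases on opposite strands, and the strand setting of the counting is not given, so reads there cannot be told apart. Across the 18 libraries the pair did not move together, with r = -0.33 in log2 CPM.

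In KK/HlJ, Hspd1 was 1.04 and 32 CPM at ISO day 14, 4.19 and 31.5 CPM at day 21 and 10.7 and 7.02 CPM in sham. The low ISO libraries are replicate 1 at each day, which are among those that stand apart. In C3H/HeJ it was 31.1 and 32.2 CPM at ISO day 14, 30 and 19.5 CPM at day 21 and 11.9 and 7.82 CPM in sham, with both ISO days above sham. Its log2 fold change in C3H/HeJ was 1.69 at day 14 (SE 1.07, adjusted p = 1) and 1.33 at day 21 (SE 1.06, adjusted p = 0.849). The mean over strains was 0.87 at day 14 (SE 0.608, adjusted p = 0.974). It turned to -0.46 without replicate 2 of KK/HlJ ISO day 14, where that group rested on replicate 1, the shallowest library, with 8 counts of Hspd1. Without replicate 1 of that group the mean was 1.18. Hspe1 was 32.4 and 20.2 CPM at ISO day 14, 18.6 and 14.9 CPM at day 21 and 54.6 and 40.2 CPM in sham of KK/HlJ, with both ISO days below sham. The log2 fold change in KK/HlJ was -0.85 at day 14 (SE 0.585, adjusted p = 0.885) and -1.5 at day 21 (SE 0.594, adjusted p = 0.79). In C57BL/6 it was 10.7 and 5.97 CPM at ISO day 14, below sham, and 41.7 and 35.3 CPM at day 21, above sham, which held 23.2 and 14.2 CPM. The day 21 change of Hspe1 was lower in KK/HlJ than in C57BL/6 by -2.54 on the log2 scale (SE 0.834, adjusted p = 0.703).

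Hspb1 (chr5:135887919-135889563), the small heat shock protein HSP27 (HSP25 in mouse), binds unfolded proteins and actin. Its level ran between 15.6 and 63.5 CPM. In C3H/HeJ it was 34.3 and 34.9 CPM at ISO day 14, 43.5 and 15.6 CPM at day 21 and 25.2 and 29 CPM in sham, above sham at day 14 and overlapping at day 21. In KK/HlJ and C57BL/6 the ISO and sham libraries overlapped at both days. Its mean change over strains was 0.02 at day 14 (SE 0.331, 95% interval -0.67 to 0.7) and -0.09 at day 21 (SE 0.331, 95% interval -0.78 to 0.59), with an adjusted p of 1 for both. Stretches of 50 bases also found in other genes make up 51.6% of Hspb1, 58.5% of Hsp90aa1 and 44.8% of both Hspd1 and Hspe1, so their counts are uncertain to the extent that reads were split, against 0.441% of Dnajb1.

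Across the 10 members, edgeR called none in ISO against sham at either day, in any strain or in the mean over strains, where DESeq2 called Hsph1 in 4 of these 8 comparisons and limma voom called none. Over all genes the alternative settings, DESeq2 and limma voom among them, called 2 to 94 genes for the day 14 mean and 2 to 78 for the day 21 mean. In C3H/HeJ these settings called 0 to 27 genes at day 14 and 0 to 33 at day 21. For the means the main edgeR fit called 0.0381% of all genes at day 14 and 0.0444% at day 21, and 1 member, Hsph1, had an unadjusted p under 0.05 at each day. ISO day 21 against ISO day 14 gave 0 of 10 members by edgeR, DESeq2 and limma voom, with 0 at an unadjusted p under 0.05 and 0% of all genes called. Within strains, 0% of all genes were called in C57BL/6 at both days, in C3H/HeJ at day 21 and in KK/HlJ at day 14, 0.0127% in C3H/HeJ at day 14 and 0.019% in KK/HlJ at day 21. In C3H/HeJ at day 14, 6 members had ISO libraries above sham without overlap (Hsph1, Hspa1a, Hspa1b, Hsp90ab1, Hspd1 and Hspb1) and Dnajb1 had them below, 7 of 10 in all where 33.9% of all genes did not overlap. At day 21 there were 4 of 10, all higher, where 35.2% of all genes did not overlap. The other strains had 2 or 3 of 10 members without overlap, 2 of 10 in KK/HlJ at day 14 (22.9% of all genes) and day 21 (25.5%), and in C57BL/6 2 of 10 at day 14 (31% of all genes) and 3 of 10 at day 21 (37%). The median log2 fold change over members in C3H/HeJ was 0.48 at day 14 and 0.08 at day 21, beside 0.03 and 0.01 over all genes. In KK/HlJ it was 0.07 and 0.19, beside 0.00 and 0.04, and in C57BL/6 it was -0.17 and -0.27, beside -0.03 and 0.00. Members with an unadjusted p under 0.05 numbered 1 and 2 in KK/HlJ, 2 and 1 in C3H/HeJ and 0 and 1 in C57BL/6 at day 14 and day 21. Summed over the 10 members, which Hsp90ab1 dominates, C3H/HeJ held 2046 to 2090 CPM at ISO day 14, 1556 to 1841 CPM at day 21 and 1310 to 1540 CPM in sham. KK/HlJ held 1745 to 2206 CPM at ISO day 14, 2102 to 2183 CPM at day 21 and 1922 to 2361 CPM in sham. C57BL/6 held 2166 to 2614 CPM at day 14, 1642 to 2784 CPM at day 21 and 2493 to 3132 CPM in sham. The immediate-early genes, which respond to cell dissociation, summed to 16490 to 17400 CPM at ISO day 14, 22370 to 25760 CPM at day 21 and 22800 to 25140 CPM in sham of KK/HlJ. They summed to 17870 to 19000 CPM at ISO day 14, 22890 to 25990 CPM at day 21 and 15240 to 25210 CPM in sham of C3H/HeJ, and to 20930 to 21170, 14550 to 20460 and 25510 to 28790 CPM in the same order in C57BL/6. In C3H/HeJ at day 14 other marker sums also lay apart from sham. Schwann and glia markers were 102.6 to 126.7 CPM at ISO day 14 against 195.1 to 224.6 CPM in sham, and pericyte and smooth muscle markers 1599 to 1955 CPM against 2107 to 2970 CPM. Endothelial markers were 562.5 to 672.9 CPM against 753.4 to 939.4 CPM, macrophage and monocyte markers 35.63 to 48.32 CPM against 12.36 to 16.87 CPM, and the 2 cold-induced RNA-binding protein genes 39.65 to 48.81 CPM against 65.9 to 84.93 CPM. Their part in the chaperone levels was not tested.

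**Figure D3:**
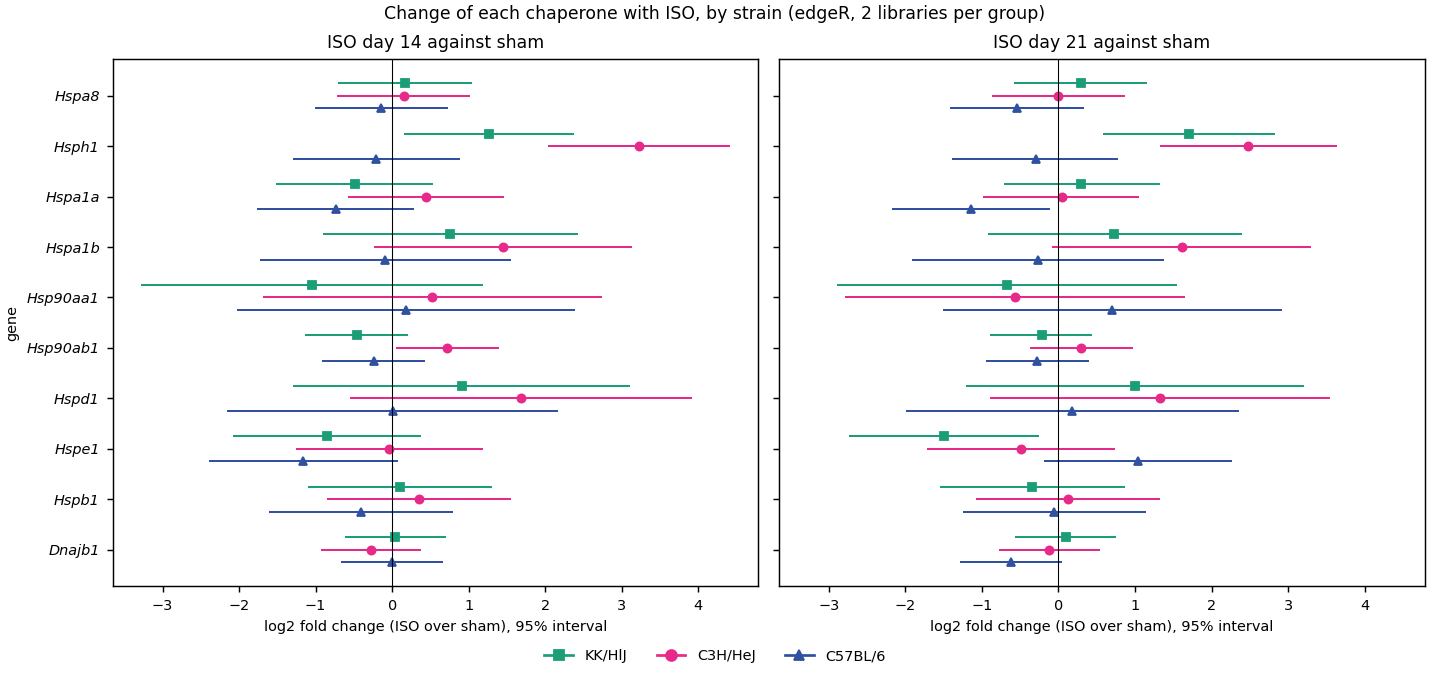
Log2 fold change of ISO over sham (x) for each chaperone (y) at day 14 (left) and day 21 (right), by strain, as edgeR estimates with 95% intervals from 2 libraries per group. Hsph1 in C3H/HeJ is at 3.22 and 2.48, and most other intervals include 0.

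No gene of the wider chaperone network passed the test with ISO. In lists of related genes chosen with earlier results of these data known, 0 genes were called in the mean of either day by edgeR in any of the lists of other cytosolic HSP70 and HSP110 proteins (5 genes), cytosolic J-domain co-chaperones (10), nucleotide exchange factors and HSP70 partners (8), HSP90 co-chaperones (12), small heat shock proteins (5), the chaperonin CCT (8), mitochondrial chaperones and proteases (9), other HSF1-linked stress genes (8) and endoplasmic reticulum chaperones (18). The median log2 fold changes of these lists ran from -0.17 in the small heat shock proteins, with 0 of 5 positive, to 0.33 in the other HSP70 and HSP110 proteins, with 5 of 5 positive, at day 14, beside 0.02 over all genes. At day 21 these lists had 0 of 5 and 4 of 5 positive. In the heat shock factor list 3 of 4 genes passed the filter and none was called, with a median of -0.24 at day 14. In C3H/HeJ alone at day 14, where the 10 members had a median of 0.48, the endoplasmic reticulum chaperones had a median of 0.47, with 16 of 18 positive, and the other HSP70 and HSP110 proteins 0.56, with 4 of 5 positive. Between strains the only called gene outside the members was Hspb8, a small heat shock protein that works with the co-chaperone Bag3. It was lower in KK/HlJ than in C3H/HeJ over the 3 conditions, with group means averaging 63.7 CPM against 124 CPM (log2 fold change -0.94, SE 0.21, adjusted p = 0.0479). That call was lost in 14 of the 18 fits with 1 library left out, at adjusted p of up to 0.245.

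Whether the members varied with each other from library to library was examined over the 45 pairs, in log2 CPM with permutation tests of 100000 resamples (two-sided) adjusted over the 45 pairs. Hspa8 places C3H/HeJ apart from the other strains, so no pooled value is given for its 9 pairs. Of the other 36 pairs 27 had a positive r (75%), with a median of 0.20 and 6 at 0.5 or more (16.7%). Among pairs of all genes tested, sampled at every 8th gene (1971 genes), the median was 0.03, with 54.3% positive and 5.45% at 0.5 or more. These genes were not matched to the members in level. Of the 15762 genes tested, 10047 had a mean of at least 5 CPM, where each member had a mean of at least 21.1 CPM. The shares of members and of all genes are therefore not like for like. The libraries share strain, condition and depth across genes, and these shares are a description. By Pearson's r 2 of the 45 pairs passed the adjusted threshold, and by Spearman's rho none did, with 12 pairs at an unadjusted Pearson p under 0.05. The permutations treated the 18 libraries as exchangeable, though they form 9 groups of strain and condition. Differences between groups therefore count towards these p-values, and a small p does not by itself show that 2 members vary together within groups.

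Hsph1 and Hspa1b had r = 0.79 over 18 libraries (permutation p = 0.00026, adjusted p = 0.0117) and rho = 0.61 (permutation p = 0.00875, adjusted p = 0.0997). Without the 2 libraries farthest from the median of Hsph1, r was 0.62. Within strains r was 0.48 in KK/HlJ, 0.82 in C3H/HeJ and 0.90 in C57BL/6, with 6 libraries in each. The lowest point of the pair was replicate 1 of C3H/HeJ sham, at 9.27 CPM for Hsph1 and 2.36 CPM for Hspa1b, and 0 pairs passed when that library was left out. The split of counts between Hspa1b and Hspa1a is uncertain. Hsph1 with Hspa1a had r = 0.43 (permutation p = 0.0705, adjusted p = 0.212), and 0.06 over the differences within groups described below. Hsph1 with the summed counts of Hspa1a and Hspa1b was not tested. Hsp90ab1 and Hspd1 had r = 0.70 (permutation p = 0.00121, adjusted p = 0.0272) and rho = 0.62 (permutation p = 0.00715, adjusted p = 0.0997), with r = 0.55 without the 2 farthest libraries. Within strains r was 0.73 in KK/HlJ, 0.92 in C3H/HeJ and 0.56 in C57BL/6. The lowest point of this pair was replicate 1 of KK/HlJ ISO day 14, at 682 CPM for Hsp90ab1 and 1.04 CPM for Hspd1. Not all members moved the same way. Hsp90aa1 and Dnajb1 had r = -0.53 (permutation p = 0.0209, adjusted p = 0.169) and rho = -0.52, and r was -0.83 in KK/HlJ, -0.82 in C3H/HeJ and -0.42 in C57BL/6. Without the 2 farthest libraries r was -0.34.

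To set strain and condition aside, each pair was also compared over the 9 differences between the 2 libraries of a group. Here r was computed without subtracting the mean difference, unlike the Pearson r over the 18 libraries. In these differences Hsp90aa1 and Dnajb1 had r = -0.81 (exact p over 512 sign changes = 0.00781, adjusted p = 0.22), Hsp90ab1 and Hspd1 0.73 (exact p = 0.0391, adjusted p = 0.352), and Hsph1 and Hspa1b 0.59 (exact p = 0.156, adjusted p = 0.516). None of the 45 pairs passed the adjusted threshold, 5 had an unadjusted exact p under 0.05, and the smallest p this test allows is 0.00391. The median r over the 45 pairs was 0.23, with 31 positive. Hspa8, whose pooled value is not given, had r = 0.93 with Hsp90ab1 within C57BL/6, 0.53 within C3H/HeJ and 0.27 within KK/HlJ, and 0.76 in the differences (exact p = 0.0195, adjusted p = 0.22). Near copies were not added for these values. In KK/HlJ sham, Hspa8 was 400 and 163 CPM, and replicate 2 held 880 counts under Gm15459. With near copies added the levels there were 401 and 247 CPM.

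**Figure D4:**
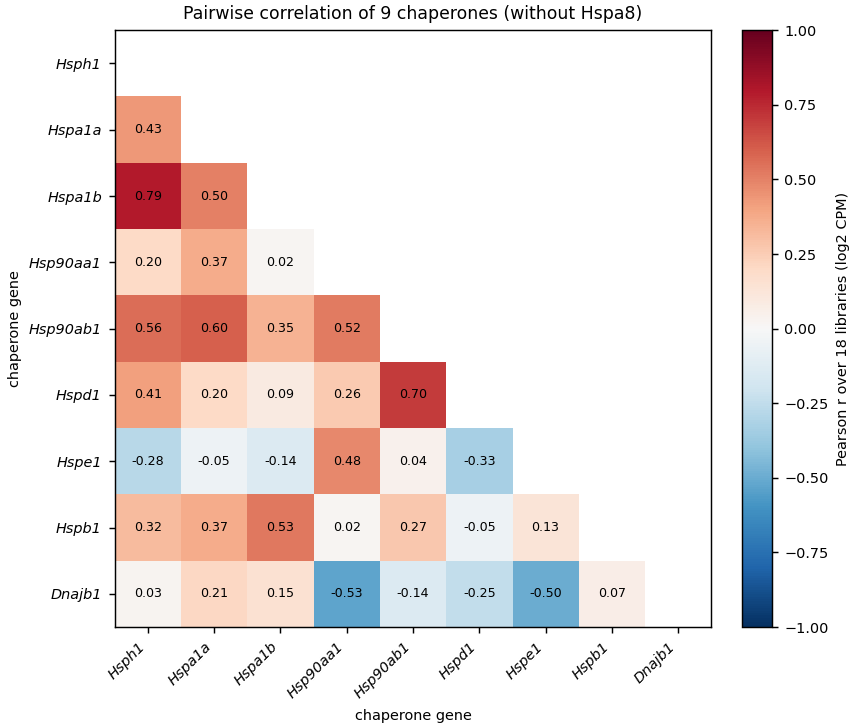
Pearson r of log2 CPM over 18 libraries for each pair of 9 chaperones, without Hspa8, on a colour scale from -1 (blue) to 1 (red). The highest value is 0.79 for Hsph1 with Hspa1b and the lowest -0.53 for Hsp90aa1 with Dnajb1.

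**Figure D5:**
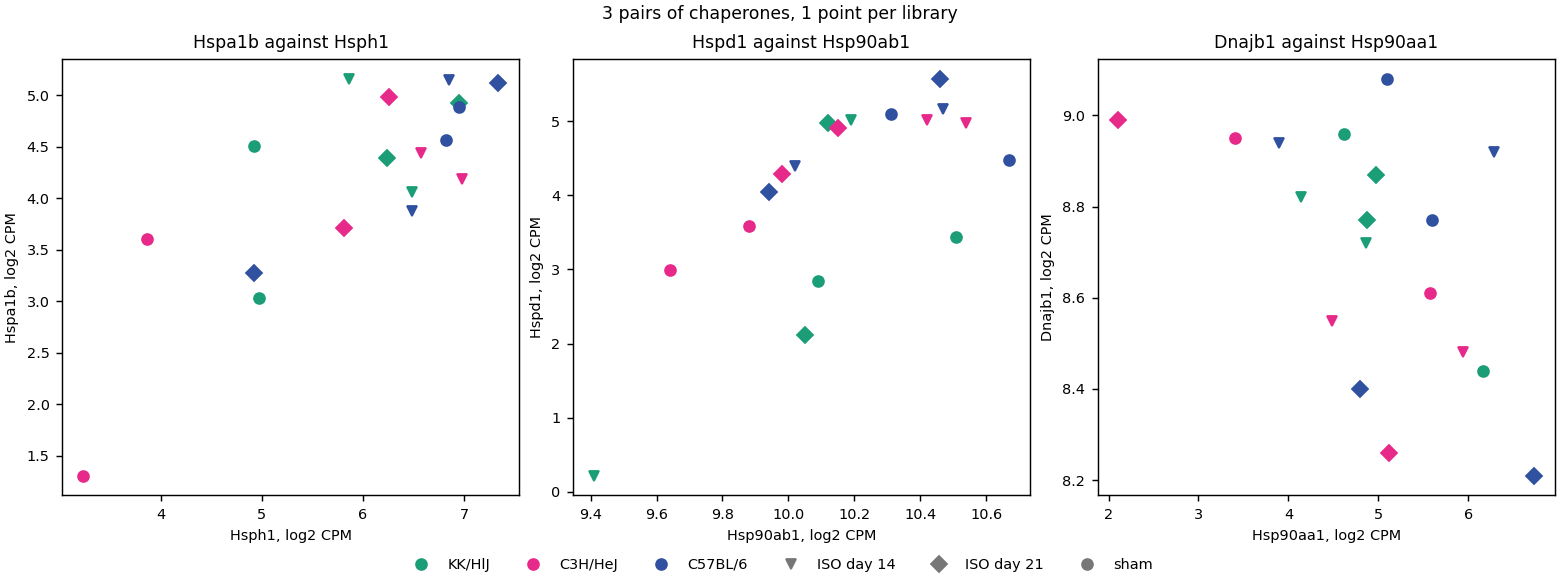
Levels in log2 CPM of 3 pairs of chaperones, with 1 point per library, colour for strain and symbol for condition. Hspa1b against Hsph1 and Hspd1 against Hsp90ab1 each have 1 library far below the rest, and Dnajb1 against Hsp90aa1 runs downward with r = -0.53.

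Among 10047 genes with a mean of at least 5 CPM, those whose level followed the mean standardised log2 CPM of the 10 members most closely over the 18 libraries were Map3k6 (r = 0.809), a stress-activated kinase, Hnrnpm (0.778), an RNA-binding splicing factor, and Anp32e (0.753), a histone chaperone, then Prelid3b, Dnajc3, Pop4, Abcf1, Mtus1, Sfpq and Larp4b. Dnajc3 is itself a chaperone, a J-domain protein of the endoplasmic reticulum. The mean of the members includes Hspa8, which places C3H/HeJ apart. It also includes both Hspa1a and Hspa1b, whose split of counts is uncertain. Hsph1 was followed most closely by Slain2 (r = 0.862), Hnrnpm (0.850), Rmnd5a (0.845), N4bp2 (0.839) and Eri1 (0.810). Hspb1 was followed by Ninj1 (r = 0.889), Mrps6 (0.841), Id3 (0.809), Tusc2 (0.802) and Pop5 (0.789). The genes were picked as the highest of many, so the values describe these libraries, which share strain, condition and depth.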

How the data were processed

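Thy1+ cells sorted from mouse hearts were profiled by stranded, single-end RNA-seq of mRNA, with reads of 50 bases, in 18 libraries. The authors deposited raw read counts per Ensembl gene, 1 table per library. The submitters' processing notes name FastQC, STAR 2.5.3a, edgeR and mm10. No source used here gives the annotation, the read counter or how strand was set. Of 53342 identifiers, 53237 matched GENCODE M21, and the 105 others held 0.00159% of counts.

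Groups came from the sample labels. Counts were tested with edgeR 4.0.16 in R 4.3.3 (robust quasi-likelihood, TMM scaling, filterByExpr, 9 groups, 9 residual degrees of freedom), with p-values adjusted by Benjamini-Hochberg over 15762 genes and called under 0.05. The CPM levels use TMM library sizes, log2 CPM a prior count of 2, and standard errors were derived from each test's fold change and F. DESeq2 1.42.0, limma 3.58.1, RLE scaling, no filter, length and GC offsets, a replicate block, fits of the compared groups alone and fits with libraries left out were alternatives. The edgeR step was tested on simulated data with 200 changed genes. The members, lists and tests were chosen with earlier results of these data known. Named genes are the 10 members, called genes of the lists, and those most like the members in pattern. Intervals cover the spread between libraries.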

Additional observations from a re-analysis of the deposited data

How the results depend on the processing

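Of 864 values, from 32 fold changes of single genes under 27 alternatives each, 809 had the direction and call reported, 33 lost the call, 21 gained it and 1 turned. Most of the 32 changes were not called in the main fit, and for them staying uncalled counts as the same. The 809 therefore say little about how stable the calls are. All 33 lost calls were of Hspa8, Hsph1 or Hspb8, the genes called in the main fit, and all 21 gained were of Hsph1. The value that turned was the ISO change of Hspd1 at day 14, mean of 3 strains. It was -0.46 without replicate 2 of KK/HlJ ISO day 14 and 1.18 without replicate 1, the range over left-out libraries. DESeq2 and leaving out the filter on low counts each called 1 member in ISO against sham at day 14 and day 21 (means over strains) and at both days in C3H/HeJ, and 2 members in C3H/HeJ against C57BL/6 over the 3 conditions. Without the filter 1 member was also called in KK/HlJ against C57BL/6 sham and in the difference of the ISO change between C3H/HeJ and C57BL/6 at each day. In sham, C3H/HeJ against C57BL/6 gave 1 member and KK/HlJ against C3H/HeJ 0 without the 4 libraries that stand apart, with limma voom, or with near copies added. Both gave 0 when only the groups compared were fitted. KK/HlJ against C3H/HeJ over the 3 conditions gave 0 with near copies added. Correlated pairs numbered 4 without the 4 libraries, and 0 without the 2 farthest libraries. They were also 0 in the differences and within each strain, where so few values are compared that no pair alone could pass after adjustment over the 45, so these say nothing of stability. With each library left out, the members called were 0 to 1 for ISO at day 14 (mean), day 21 (mean) and day 14 in C3H/HeJ, 1 to 2 for C3H/HeJ against C57BL/6 in sham and over the 3 conditions, 0 to 1 for KK/HlJ against C3H/HeJ in sham and KK/HlJ against C57BL/6 over the 3 conditions, and 0 to 3 for correlated pairs. Fitting the replicate number as a block left 0 members called with ISO, 2 in C3H/HeJ against C57BL/6 sham and 1 in KK/HlJ against C3H/HeJ sham, the counts reported, and RLE scaling and the offsets changed no member count. Libraries of equal number did not pair: over 36 pairs of groups the correlation of their deviations ran from -0.14 to 0.16, with a median of -0.01. The causes were not tested. Over all genes, other settings called 0 to 27 genes for ISO in C3H/HeJ at day 14 (2 reported) and 0 to 33 at day 21 (0 reported). For C3H/HeJ against C57BL/6 over the 3 conditions they called 92 to 414 genes (102 reported). Counts over all genes are given as the range over other settings and then with a library left out. They were 2 to 94 and 3 to 234 genes for ISO at day 14, mean of strains (6 reported), 2 to 78 and 2 to 60 at day 21 (7 reported), 0 to 97 and 0 to 477 for KK/HlJ at day 14 (0 reported), 0 to 92 and 8 to 151 for C3H/HeJ against C57BL/6 sham (16 reported), 0 to 96 and 3 to 64 for KK/HlJ against C57BL/6 sham (8 reported), and 3 to 199 and 6 to 119 for KK/HlJ against C3H/HeJ sham (24 reported).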
